A study of Mus musculus with 12 samples.

Results

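The Argonaute and Tnrc6 genes, which encode the core of the microRNA silencing complex, were described in mouse embryonic stem cells (ESCs) that lacked a microRNA processing factor. The 7 genes were chosen by symbol (Ago1 to Ago4 and Tnrc6a to Tnrc6c), and all 7 were found among the 18412 genes of each deposited table. They had been picked with their knockout against wild-type changes, and their exonic against intronic changes, in view. Those changes are therefore given below as a description and not as a test.

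Polyadenylated RNA was sequenced strand-specifically from 4 groups of 3 libraries, and exonic and intronic reads were tabulated separately for each gene. The first pair was a Dicer1-/- line and TFC, its wild type, and the second a Dgcr8-/- line and V6.5, its wild type. All were ESCs grown on gelatin in serum with leukemia inhibitory factor. Each genotype was a single named line, so loss of the factor and any further difference of that line from its wild type cannot be told apart. The labels do not say whether a group's libraries were separate cultures, so errors and p-values below measure only the spread between libraries, which may be technical. Each pair, and exons and introns within it, had been scaled on its own, so a knockout is set only against the wild type of its pair. The only test across pairs takes the Dgcr8 change from the Dicer1 change, each measured within its pair.

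Argonaute proteins bind a microRNA and use its seed, the bases near its 5′ end, to pair with sites that lie mostly in the 3′ UTR of target transcripts. Tnrc6 proteins (also called GW182 proteins) bind Argonaute and bring in the deadenylases that shorten the target's poly(A) tail. Drosha with Dgcr8 cuts the primary microRNA transcript in the nucleus and Dicer cuts the hairpin in the cytoplasm, so both knockouts lack most microRNAs, while some small RNAs need Dicer and not Dgcr8. In mouse ESCs the miR-290 cluster is among the most abundant microRNA families. Intronic reads come mainly from unspliced RNA and exonic reads mainly from mature RNA.

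Because the members are themselves transcripts with 3′ UTRs, the sites that microRNAs of ESCs could pair with are shown first. The mature sequences come from RefSeq (GRCm38.p6), with the seed (bases 2 to 8) in capitals. These 4 were printed because matches to their seeds recur in the members or because they belong to the family best known in these cells.
miR-294-3p: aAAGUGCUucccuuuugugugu
miR-17-5p: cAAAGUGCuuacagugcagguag
miR-19b-3p: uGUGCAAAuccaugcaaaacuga
miR-130a-3p: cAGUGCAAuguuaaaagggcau
The seed of miR-294-3p, AAGUGCU, is shared by miR-291a-3p, miR-295-3p, miR-302b-3p and miR-302d-3p, so these count as one family. MicroRNA levels were not measured in these libraries.

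In the longest annotated 3′ UTR of each member (GENCODE M21, GRCm38, the build that is also called mm10), matches to 9 seeds were counted on the transcript strand. The motifs were AGCACTT for miR-294-3p, GCACTTT for miR-17-5p, TTTGCAC for miR-19b-3p, GTGCAAT for miR-92a-3p, TTGCACT for miR-130a-3p, TGCTGCT for miR-15b-5p, TACTTGA for miR-26a-5p, TGCACTG for miR-148a-3p and CTACCTC for let-7a-5p. Several of these overlap in sequence, so 1 stretch can be counted for more than 1 seed. Ago1 held 8 matches in 4491 bases, where UTRs of 0.8 to 1.25 times its length held 4.04 on average. Ago2 held 12 matches in 11064 bases against 8.43 in UTRs of like length, Ago3 held 22 in 12742 bases against 9.58, and Ago4 held 8 in 3682 bases against 3.21. Among the Tnrc6 genes, Tnrc6a held 5 matches in 2345 bases against 2.10, Tnrc6b held 15 in 11609 bases against 8.78, and Tnrc6c held 6 in 2588 bases against 2.30. All 7 UTRs thus held more matches to the 9 seeds than the mean of UTRs of like length. The share of UTRs of like length that also lie above that mean was not worked out, so nothing is read from this. Overlapping motifs add to the counts: in Tnrc6a the matches at UTR positions 373, 374 and 375 are 1 stretch. The same holds for those at 945, 946 and 947 in Tnrc6c. A match is a description of the letters and does not show that a site is used. The deposited exon lengths, 8031 bases for Ago2 and 7635 for Ago3, are shorter than the UTRs searched, so some of these matches lie outside the exons in which reads were counted.

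The match to the miR-294-3p seed was present in Ago3 (3 times), Tnrc6b (2 times) and Tnrc6c (1 time), and these letters were not found in the UTRs of Ago1, Ago2, Ago4 or Tnrc6a. The motif is common in long UTRs: it stood in 44.3% of UTRs as long as that of Ago1 and in 77.8% of those as long as that of Tnrc6b. The motif of miR-130a-3p was found in all 7 members, 3 times each in Ago1, Ago2 and Ago3. The motif of miR-148a-3p was also found in all 7, 3 times each in Ago3 and Ago4. Among UTRs of like length, that of miR-130a-3p stood in between 15.4% (for Tnrc6a) and 61.3% (for Ago3). That of miR-148a-3p stood in between 21.4% (for Tnrc6a) and 60.4% (for Ago2).

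After the single matches had been seen, the 8-base run TTTGCACT, which holds the miR-19b-3p and miR-130a-3p motifs together, was looked for. It occurred in 6 of the 7 members, in Ago3 at 2 places, and not in Ago4. Of all 3′ UTRs 4.33% held it, and of UTRs of like length 13.7% did for Ago1, 6.06% for Tnrc6a and 6.85% for Tnrc6c, but 34.0% for Ago2, 35.5% for Ago3 and 35.6% for Tnrc6b. The sites of the 4 members that hold the run and had an exonic log2 change above 1 in either pair are printed with the run in capitals.
Ago1 (chr4:126438527-126438556, minus strand): gttaaaatccattgacaTTTGCACTttcag
Tnrc6a (chr7:123193307-123193336, plus strand): acgtatgagcttttaccTTTGCACTgagtg
Tnrc6b (chr15:80929871-80929900, plus strand): atagctttttaactttgTTTGCACTgggtg
Tnrc6c (chr11:117761779-117761808, plus strand): tgttatttgcttctaacTTTGCACTgaggt
In the Ago1 site the run went on into the miR-17-5p motif, and in the sites of the 3 Tnrc6 genes it went on into the miR-148a-3p motif. The capitals are the same 8 letters at every site because that run was searched for, so nothing is read from their likeness. Ago2 and Ago3 also hold the run, and their sites are not printed.

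The values per library were worked out from the group means that the authors deposited, and are called normalised reads below. The libraries held between 5333084 and 29910160 exonic reads and between 559057 and 5597604 intronic reads. Within a group the libraries are lettered A to C, and library A is the one least like its fellows. In exons, the chi-square of reads per gene, which is about 1 for sampling noise alone, was 21.1 to 58.1 between libraries B and C, and 124 to 421 between library A and either of the others. The 8 markers of ESCs that were measured (Pou5f1 and Nanog among them) had group means of at least 2017 normalised reads in all 4 groups. Dicer1 itself averaged 1590 normalised exonic reads in Dicer1-/- cells and 3239 in TFC, and Dgcr8 averaged 803.8 in Dgcr8-/- cells and 2528 in V6.5. These sums run over all exons of each gene, so they do not show how much of the deleted part was left.

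Ago1 (chr4:126435012-126468583, minus strand) encodes an Argonaute that binds microRNAs and silences through Tnrc6. Its exonic level was 8965, 7480 and 8569 normalised reads in Dicer1-/- libraries A, B and C, against 2738, 2995 and 2890 in TFC. In the other pair it was 7108, 7919 and 7732 in Dgcr8-/- cells, against 2031, 2547 and 2281 in V6.5. Every knockout library was higher than every wild-type library in both pairs. The log2 fold change was 1.53 (standard error, SE, 0.21) without Dicer1 and 1.73 (SE 0.23) without Dgcr8.

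Ago2 (chr15:73095844-73184935, minus strand), the Argonaute that cuts fully paired targets, had 5639, 3860 and 5009 normalised exonic reads in Dicer1-/- libraries, against 5131, 3243 and 3505 in TFC, and 3714, 3328 and 3123 in Dgcr8-/- libraries, against 3687, 3219 and 2971 in V6.5. Knockout and wild-type libraries overlapped in both pairs. Its log2 fold change was 0.30 (SE 0.27) without Dicer1 and 0.044 (SE 0.24) without Dgcr8. Library A was the highest of its group in all 4 groups. Exons of Ago2 overlap those of Chrac1 on the opposite strand, and the libraries are strand-specific, but whether the counting used the strand was not stated, so its exonic values are uncertain.

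Ago3 (chr4:126331704-126429556, minus strand) and Ago4 (chr4:126489541-126533472, minus strand) lie on either side of Ago1, and both encode microRNA-binding Argonautes. Ago3 had 624.9, 842.8 and 626.8 normalised exonic reads in Dicer1-/- libraries, against 488.9, 385.2 and 615.6 in TFC, so the groups did not overlap, with the lowest Dicer1-/- library just above the highest TFC library. In the other pair it had 120.6, 669.7 and 574.0 in Dgcr8-/- libraries, against 193.0, 360.2 and 398.5 in V6.5. There library A was the lowest of both groups and the groups overlapped. The log2 fold change was 0.50 (SE 0.35) without Dicer1 and 0.25 (SE 0.69) without Dgcr8, and the second became 1.03 without library A of the Dgcr8-/- group.

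Ago4 was close to the limit of detection. It was listed with 34.5, 0 and 61.1 normalised exonic reads in Dicer1-/- libraries against 38.5, 0 and 0 in TFC, and with 10.4, 17.9 and 0 in Dgcr8-/- libraries against 30.5, 0 and 15.9 in V6.5. A count of 0 allows up to 3 reads, which is 1.25 to 7.62 normalised reads depending on the library. The log2 fold changes, 1.93 (SE 2.35) and -0.44 (SE 1.82), were smaller than their errors, and the first was 0.90 with a pseudocount of 10.

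Tnrc6a (chr7:123123885-123195296, plus strand) encodes one of the 3 Tnrc6 proteins, the scaffolds between Argonaute and the deadenylases. It had 8696, 10172 and 9852 normalised exonic reads in Dicer1-/- libraries, against 2940, 4011 and 4178 in TFC. In the second pair it had 4511, 8805 and 9159 in Dgcr8-/- libraries, against 1981, 3415 and 3535 in V6.5. Library A was the lowest in all 4 groups, yet the knockout libraries lay above all wild-type libraries in each pair. The log2 fold change was 1.38 (SE 0.24) without Dicer1 and 1.31 (SE 0.38) without Dgcr8. A noncoding gene, Gm45846, overlaps its exons on the same strand.

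Tnrc6b (chr15:80711313-80941085, plus strand) showed the same arrangement. Its levels were 5911, 5607 and 6005 normalised exonic reads in Dicer1-/- libraries, against 2778, 2324 and 2583 in TFC, and 3226, 6524 and 6030 in Dgcr8-/- libraries, against 1338, 1880 and 2161 in V6.5. The groups did not overlap in either pair. The log2 fold change was 1.19 (SE 0.21) without Dicer1 and 1.51 (SE 0.35) without Dgcr8.

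Tnrc6c (chr11:117654289-117763439, plus strand) differed between the pairs in where its groups lay. It had 3617, 1687 and 1429 normalised exonic reads in Dicer1-/- libraries, against 3063, 2241 and 1533 in TFC, with full overlap and a log2 fold change of -0.090 (SE 0.40). It had 2696, 2154 and 2008 in Dgcr8-/- libraries, against 1623, 825.6 and 675.8 in V6.5, with no overlap and a log2 fold change of 1.23 (SE 0.37). Library A was the highest of its group in all 4 groups.

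**Figure D1:**
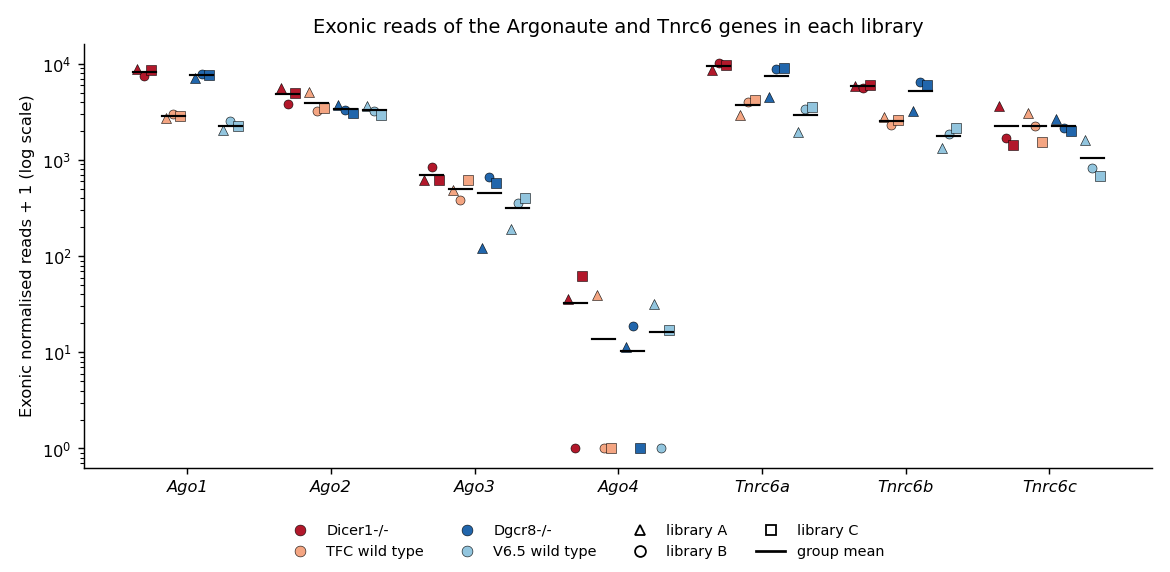
Exonic normalised reads + 1 (log scale) of the 7 genes in each of the 12 libraries; colours give the groups, symbols the libraries A to C, and black bars the group means. For Ago1, Tnrc6a and Tnrc6b each knockout group lies above its wild-type group, for Ago2 the groups overlap, and Ago4 lies near 0.

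Calls were made with limma across all genes with a mean of at least 10 (Benjamini-Hochberg adjusted p under 0.05). In exons without Dicer1, 3 of the 7 members were called higher (Ago1, Tnrc6a and Tnrc6b) and none lower, where 1.02% of all 13114 genes were called higher and 0.229% lower. Without Dgcr8, Ago1 alone was called higher and none lower, where 0.791% of 12641 genes were called higher and 0.554% lower. With a term for library A against B and C, Tnrc6a, Tnrc6b and Tnrc6c were called higher as well without Dgcr8, at the same fold changes, and 2148 genes in all were called. Library A was picked from these same values as the one least like its fellows, so calls with this term are no test. Since the members were chosen on these contrasts, nothing is read from these counts. In both pairs 6 of the 7 log2 fold changes were above 0, where 49.4% of all genes were without Dicer1 and 45.7% without Dgcr8. The 6 include changes smaller than their errors, such as Ago4 without Dicer1 (1.93, SE 2.35) and Ago2 without Dgcr8 (0.044, SE 0.24). The median over the members was 1.19 without Dicer1 and 1.23 without Dgcr8, beside -0.011 and -0.081 over all genes. With scaling to table totals the Dgcr8 median over all genes was 0.053 and the genes called were 169 higher and 72 lower, where the deposited scaling gave 100 higher and 70 lower.

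In each pair 4 of the 7 members had every knockout library above every wild-type library: Ago1, Ago3, Tnrc6a and Tnrc6b without Dicer1, and Ago1, Tnrc6a, Tnrc6b and Tnrc6c without Dgcr8. Over all genes this held for 11.7% and 10.6%. The calls depended on single libraries, while the size of the Ago1 change did not: with 1 library left out it was 1.48 to 1.61 without Dicer1 and 1.65 to 1.82 without Dgcr8. Without library B or C of either group in the Dicer1 pair no member was called, nor were more than 7 genes of the whole table, and without library A of the Dicer1-/- group 1 member was called, Ago1. In the Dgcr8 pair, leaving out library B or C of either group left no member and no gene called, whereas 3 members were called without library A of the Dgcr8-/- group and 2 without library A of V6.5.

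The Dgcr8 pair also differed in markers of other cells. The 10 fibroblast markers summed to 893.9 normalised reads in Dgcr8-/- cells (588.4 to 1443 by library, Lum at 0) and 9459 in V6.5 (5769 to 13475, none at 0), with 9 of the 10 lower in Dgcr8-/- cells. The 8 trophectoderm markers summed to 1927 in Dgcr8-/- cells (Elf5 at 0) and 12288 in V6.5, and all 8 were lower in Dgcr8-/- cells. The 6 mesoderm markers summed to 74.2 in Dgcr8-/- cells (T and Mesp1 at 0) and 2589 in V6.5 (Mesp1 at 0), with 1 higher and 4 lower in Dgcr8-/- cells. The V6.5 libraries were unlike in this sum, with 284.4 in A, 3504 in B and 3980 in C. In the Dicer1 pair the mesoderm markers summed to 146.4 in Dicer1-/- cells and 104.9 in TFC, with 2 higher and 3 lower in Dicer1-/- cells. Of the 8 ESC markers 6 were higher in Dgcr8-/- cells, with a sum of 119649 in Dgcr8-/- cells and 66835 in V6.5. In the Dicer1 pair 8 of the 10 fibroblast markers were lower in Dicer1-/- cells, 4 of them at 0 there (Col1a2, Col3a1, Postn and Lum). Their sums were 614.7 in Dicer1-/- cells and 612.5 in TFC, with Tagln at 429.7 in Dicer1-/- cells and 103.8 in TFC. Of the 8 trophectoderm markers 6 were higher in Dicer1-/- cells, with sums of 4573 in Dicer1-/- cells and 3387 in TFC. The 8 primitive endoderm markers summed to 22306 in Dicer1-/- cells (3 higher, 4 lower) and 6254 in TFC, with Sparc at 20894 and 4281. Their sums were 11105 in Dgcr8-/- cells (3 higher, 5 lower) and 13620 in V6.5. The 5 neural markers summed to 3078 in Dicer1-/- cells and 2908 in TFC, and to 3727 in Dgcr8-/- cells and 4773 in V6.5, with 3 higher in each knockout. The part of these cells in the values of the members was not tested. In bulk RNA, fewer cells of a type and less RNA per cell cannot be told apart.

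Per kilobase of exon, the order of the members' levels differed between knockout and wild-type lines. In Dicer1-/- cells Ago1 (1141 ± 105 normalised reads per kb, SD, n = 3) and Tnrc6a (1129 ± 91.6) came first and did not differ beyond their spread. They were followed by Ago2 (602.2 ± 112), Tnrc6b (333.2 ± 11.9), Tnrc6c (257.1 ± 137), Ago3 (91.4 ± 16.4) and Ago4 (4.89 ± 4.70), where Tnrc6b and Tnrc6c overlapped. In TFC, Ago2 (493.0 ± 127), Tnrc6a (437.5 ± 79.2) and Ago1 (393.3 ± 17.7) came first and had overlapping libraries, ahead of Tnrc6c (261.1 ± 87.7), Tnrc6b (146.1 ± 13), Ago3 (65.0 ± 15.1) and Ago4 (1.97 ± 3.41). The libraries of Tnrc6c and Tnrc6a overlapped there too, with Tnrc6c at 350.9 and Tnrc6a at 346.8 in library A.

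The second pair had the same leading genes. In Dgcr8-/- cells the levels per kb were 1038 ± 58.1 for Ago1, 883.5 ± 305 for Tnrc6a, 421.9 ± 37.4 for Ago2, 300.1 ± 101 for Tnrc6b, 261.9 ± 41.5 for Tnrc6c, 59.6 ± 38.4 for Ago3 and 1.45 ± 1.38 for Ago4. The libraries of Ago1 and Tnrc6a overlapped, as did those of Tnrc6b and Tnrc6c, while every Ago2 value was above every Tnrc6b value. In V6.5 the levels were 409.9 ± 45.3 for Ago2, 351.1 ± 102 for Tnrc6a, 312.8 ± 35.3 for Ago1, 119.3 ± 58.3 for Tnrc6c, 102.3 ± 23.9 for Tnrc6b, 41.5 ± 14.3 for Ago3 and 2.37 ± 2.34 for Ago4. There the libraries of Tnrc6a overlapped those of Ago2 and of Ago1, and Ago2 was above Ago1 in every library. Tnrc6c and Tnrc6b lay within each other's spread. Ago1 had rank 1 of the 7 in both knockout lines and rank 3 in both wild-type lines, and Ago2 had rank 3 in both knockout lines and rank 1 in both wild-type lines.

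The ratio of Ago1 to Ago2 per kb was 1.75, 2.13 and 1.88 in Dicer1-/- libraries A, B and C, against 0.587, 1.02 and 0.906 in TFC. In the second pair it was 2.10, 2.61 and 2.72 in Dgcr8-/- libraries, against 0.605, 0.869 and 0.844 in V6.5. All 6 knockout libraries thus had more Ago1 than Ago2 reads per kb, and 5 of the 6 wild-type libraries had fewer. Summed over the 4 Argonaute genes, the level was 1839 ± 205 reads per kb in Dicer1-/- cells, against 953.4 ± 115 in TFC, and 1521 ± 68.0 in Dgcr8-/- cells, against 766.7 ± 29.9 in V6.5 (SD, n = 3 each). Ago1 made up 62.1% ± 1.27 of that sum in Dicer1-/- cells and 41.8% ± 6.56 in TFC, and 68.2% ± 1.28 in Dgcr8-/- cells and 40.8% ± 4.0 in V6.5.

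The 3 Tnrc6 genes together came to 1719 ± 54.8 reads per kb in Dicer1-/- cells, against 844.7 ± 25.3 in TFC, and to 1446 ± 364 in Dgcr8-/- cells, against 572.7 ± 66.9 in V6.5. Tnrc6a made up the most of this sum on average in every group, 65.8% ± 7.01 in Dicer1-/- cells against 51.9% ± 10.3 in TFC, and 60.0% ± 7.09 in Dgcr8-/- cells against 60.4% ± 11.5 in V6.5. The share of Tnrc6c was 14.8% ± 7.41 in Dicer1-/- cells, against 30.8% ± 9.77 in TFC, and 19.6% ± 9.10 in Dgcr8-/- cells, against 21.9% ± 13.6 in V6.5, so the shares overlapped in both pairs.

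**Figure D2:**
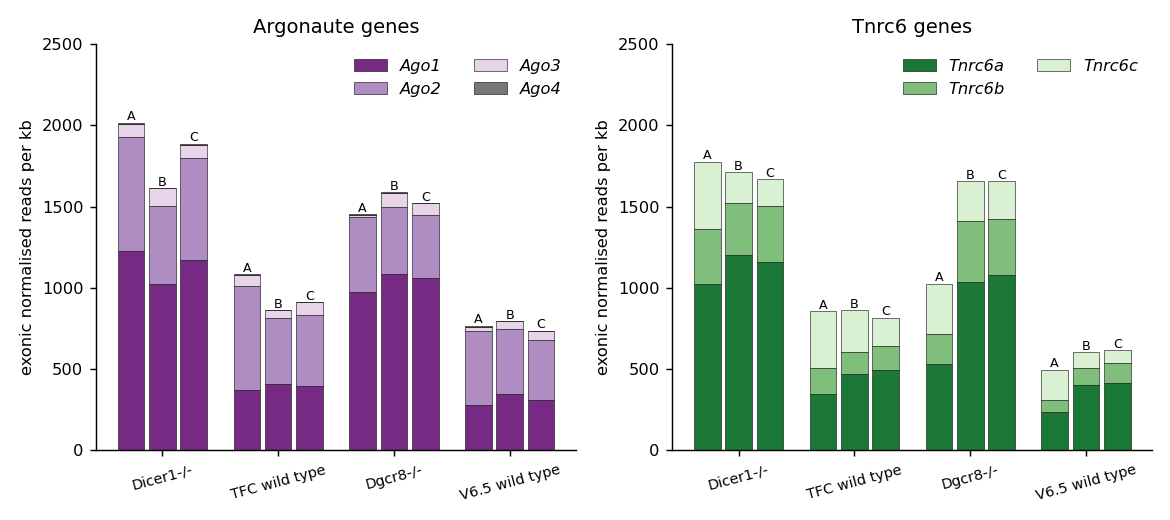
Exonic normalised reads per kb, stacked by gene, for the Argonaute genes (left) and the Tnrc6 genes (right) in every library, with the library letter above each bar. The Argonaute sums lie between 1615 and 2016 in Dicer1-/- libraries and between 864.1 and 1084 in TFC, and between 1452 and 1588 in Dgcr8-/- libraries and between 736.7 and 796.4 in V6.5.

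Intronic reads were compared to see whether unspliced RNA differed in the same way. Ago1 had 366.8, 184.9 and 256.8 normalised intronic reads in Dicer1-/- libraries, against 172.7, 110.1 and 318.6 in TFC, and 41.0, 133.0 and 188.7 in Dgcr8-/- libraries, against 97.7, 176.4 and 71.1 in V6.5. Tnrc6a had 1192, 1019 and 939.9 in Dicer1-/- libraries, against 719.8, 1091 and 950.3 in TFC, and 430.3, 606.6 and 629.9 in Dgcr8-/- libraries, against 373.1, 376.0 and 513.9 in V6.5. Tnrc6b had 205.8, 32.4 and 191.9 in Dicer1-/- libraries, against 259.6, 177.9 and 237.6 in TFC, and 122.9, 82.6 and 71.8 in Dgcr8-/- libraries, against 80.0, 48.0 and 94.8 in V6.5. For each of these genes the knockout and wild-type libraries overlapped in both pairs, unlike in exons.

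The intronic log2 fold changes of these genes were 0.51 (SE 0.47) for Ago1, 0.20 (SE 0.26) for Tnrc6a and -1.02 (SE 0.65) for Tnrc6b without Dicer1, and -0.081 (SE 0.57), 0.40 (SE 0.30) and 0.33 (SE 0.49) in the same order without Dgcr8. The Ago1 change without Dgcr8 ranged from -0.53 to 0.56 over the alternatives, so its sign is not settled. It was highest without library A of the Dgcr8-/- group, which held 48 intronic reads of this gene. Ago2 had 112.0, 90.2 and 124.2 normalised intronic reads in Dicer1-/- libraries, against 121.9, 22.2 and 55.9 in TFC, and 82.0, 33.3 and 59.1 in Dgcr8-/- libraries, against 65.2, 49.5 and 57.4 in V6.5. Ago3 had 108.2, 76.3 and 145.4 in Dicer1-/- libraries, against 105.7, 48.9 and 97.8 in TFC, and 4.3, 73.4 and 66.6 in Dgcr8-/- libraries, against 88.8, 82.0 and 49.9 in V6.5. The groups overlapped for both genes in both pairs. Ago4 stayed under 17 normalised intronic reads in every library. Ago2 had intronic changes of 1.0 (SE 0.88) without Dicer1 and -0.064 (SE 0.58) without Dgcr8, and Ago3 of 0.41 (SE 0.73) and -1.28 (SE 0.90), the second -0.030 without library A of the Dgcr8-/- group. Tnrc6c was the exception: its intronic reads were 941.6, 475.3 and 583.0 in Dgcr8-/- libraries, against 453.1, 315.6 and 257.0 in V6.5, a log2 fold change of 0.94 (SE 0.34) with no overlap, beside its exonic change of 1.23. In Dicer1-/- libraries it had 1031, 627.6 and 865.1 against 1012, 1539 and 1093 in TFC, a change of -0.53 (SE 0.28).

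**Figure D3:**
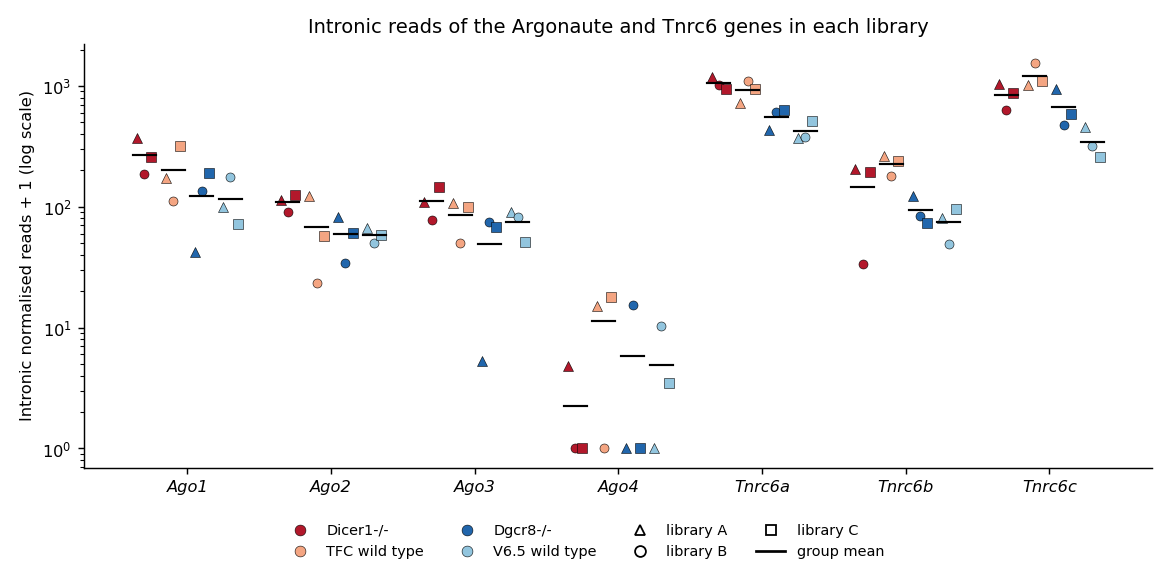
Intronic normalised reads + 1 (log scale) of the 7 genes in each of the 12 libraries, drawn as in the exonic plot. Knockout and wild-type libraries overlap for Ago1, Tnrc6a and Tnrc6b, and Tnrc6c is the member whose 3 Dgcr8-/- libraries all lie above the 3 V6.5 libraries.

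None of the 6 members with enough intronic reads was called in introns, where 0.353% of 11623 genes were called without Dicer1 and 1.52% of 10747 without Dgcr8. Ago4, with a mean under 10, was not tested there. Groups that did not overlap with the knockout higher were seen in 0 of 6 members without Dicer1 (9.27% of all genes) and in 1 of 6, Tnrc6c, without Dgcr8 (9.60% of all genes). The median intronic change of the 6 members was 0.31 without Dicer1 and 0.13 without Dgcr8, beside 0.050 and -0.054 over all genes.

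The exonic minus the intronic change was 2.22 (SE 0.63) on the log2 scale for Tnrc6b without Dicer1, but 1.40 without library B of the Dicer1-/- group, which held 28 intronic reads of this gene and without which its intronic change was -0.16. Without Dicer1 it was 1.03 (SE 0.42) for Ago1, 1.18 (SE 0.28) for Tnrc6a, 0.45 (SE 0.42) for Tnrc6c, 0.097 (SE 0.74) for Ago3 and -0.69 (SE 0.50) for Ago2. Without Dgcr8 it was 1.78 (SE 0.51) for Ago1, 1.49 (SE 0.78) for Ago3, 1.15 (SE 0.53) for Tnrc6b, 0.87 (SE 0.33) for Tnrc6a, 0.25 (SE 0.34) for Tnrc6c and 0.069 (SE 0.43) for Ago2. It was thus above 0 for 5 of 6 members in one pair and for all 6 in the other, where 47.6% and 49.9% of all genes were. The medians over the members were 0.74 and 1.01, beside -0.053 and -0.00089 over all genes. The members were chosen with this difference in view, so nothing is read from these values. With limma no member passed the adjusted threshold for this difference in either pair, and neither did any other gene (0% of 10928 and 0% of 10253), although 446 and 567 genes had an unadjusted p under 0.05.

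The ratio of exonic to intronic reads per kb, taken from the group means, put the same values on a level scale. For Ago1 it was 110 in Dicer1-/- cells, against 50.8 in TFC, and 222 in Dgcr8-/- cells, against 70.4 in V6.5. For Tnrc6a it was 67.1 in Dicer1-/- cells, against 29.7 in TFC, and 99.3 in Dgcr8-/- cells, against 52.1 in V6.5. For Tnrc6b it was 492 in Dicer1-/- cells, against 138 in TFC, and 687 in Dgcr8-/- cells, against 292 in V6.5. For Ago2 it was 415 in Dicer1-/- cells, against 554 in TFC, and 544 in Dgcr8-/- cells, against 536 in V6.5. Ago3 had 67.3 in Dicer1-/- cells, against 62.5 in TFC, and 100.2 in Dgcr8-/- cells, against 45.7 in V6.5, and Tnrc6c had 30.6 in Dicer1-/- cells, against 21.5 in TFC, and 39.3 in Dgcr8-/- cells, against 34.9 in V6.5. The ratio was thus higher in the knockout line of both pairs for 5 of these 6 genes, and for Ago2 it was lower without Dicer1. Some of these ratios lay close together, such as those of Ago3 in the Dicer1 pair, and no spread between libraries was worked out for them. The share of all genes with a higher ratio in both knockouts was not worked out either. The members were chosen with this contrast in view, so nothing is read from the count.

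**Figure D4:**
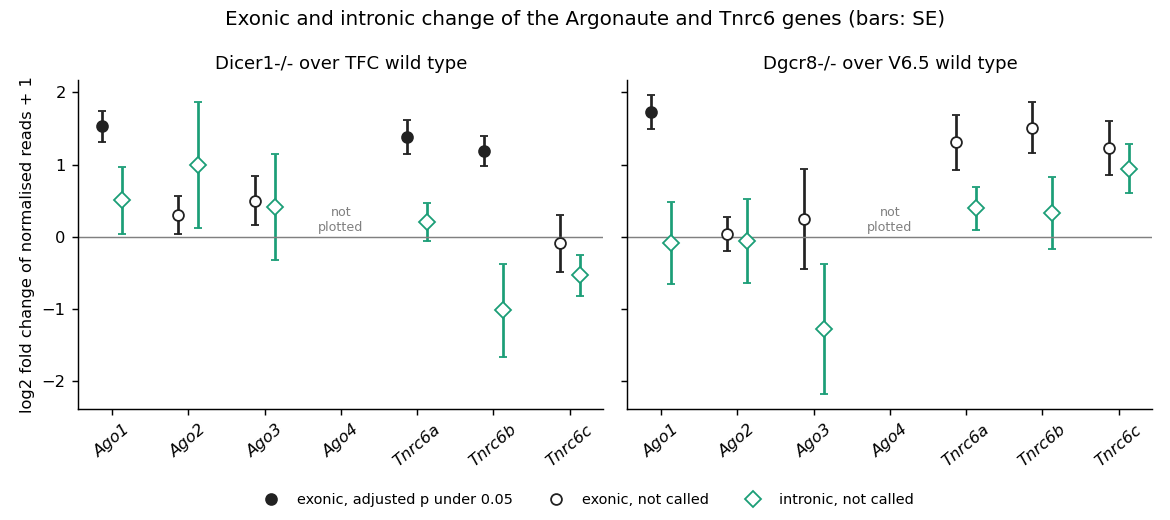
Log2 fold change of exonic (circles) and intronic (diamonds) normalised reads + 1 for Dicer1-/- over TFC (left) and Dgcr8-/- over V6.5 (right), with bars of 1 standard error; filled circles passed the adjusted threshold. Exonic points of Ago1, Tnrc6a and Tnrc6b lie between 1.19 and 1.73, above their intronic points, while for Tnrc6c without Dgcr8 both kinds lie near 1; Ago4 is not plotted because its errors exceed the scale.

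Whether the members changed differently in the 2 knockouts was asked by subtracting the Dgcr8 effect from the Dicer1 effect. The difference was -0.20 (SE 0.28) for Ago1, 0.072 (SE 0.45) for Tnrc6a, -0.32 (SE 0.40) for Tnrc6b, 0.26 (SE 0.34) for Ago2 and 0.25 (SE 0.81) for Ago3 in exons. For Tnrc6c it was -1.32 (SE 0.58) in exons and -1.47 (SE 0.45) in introns, with limma adjusted p of 0.665 and 0.456. No member passed the threshold, where 0.172% of 12229 genes did in exons and 0.00957% of 10450 in introns. With a term for library A against B and C, Tnrc6c passed in exons (limma adjusted p = 0.0323). That pass is no test, because library A was picked from the same values. Across the 17 alternatives the limma adjusted p of Tnrc6c in exons ranged from 0.0323 to 0.999. A p above the threshold does not show that the effects were alike.

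Lists of genes that work with these proteins were then read in exons. Of 19 tested Argonaute partners and regulators, 1 was called higher and none lower without Dicer1, and of 20 tested, 1 was called higher and none lower without Dgcr8, with medians of 0.16 and 0.048. In both pairs that gene was Ankrd52, a regulatory subunit of the phosphatase PP6, which in human cells is known to act on phosphorylated AGO2. It had 6312, 3409 and 3814 normalised exonic reads in Dicer1-/- libraries, against 1696, 889.2 and 973.7 in TFC, and 4721, 3044 and 2577 in Dgcr8-/- libraries, against 990.3, 849.2 and 704.5 in V6.5. Its log2 fold changes were 1.93 (SE 0.34, limma adjusted p = 0.0374) and 1.99 (SE 0.31, limma adjusted p = 0.0353). Ankrd52 was not called in either pair with limma-voom or without the variance trend. No list gene was called in either pair without library B or C of either group.

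Of 21 tested deadenylation and decapping factors in the Dicer1 pair, 1 was called higher and 1 lower, with a median of -0.035. Cnot6l, a catalytic deadenylase subunit of the CCR4-NOT complex, averaged 2858 in Dicer1-/- cells and 1026 in TFC (log2 1.49, SE 0.27), and was not called without library A of the Dicer1-/- group. Pabpc4, a poly(A)-binding protein, averaged 2176 in Dicer1-/- cells and 6356 in TFC (log2 -1.55, SE 0.24). In the Dgcr8 pair none of 22 was called in either direction, with a median of 0.10, while Cnot6l averaged 2155 in Dgcr8-/- cells and 839.4 in V6.5 and Pabpc4 averaged 1557 in Dgcr8-/- cells and 3641 in V6.5. Of 11 tested microRNA biogenesis genes, Lin28a, which blocks the processing of let-7 precursors, was the only call, lower in both pairs. It averaged 2710 in Dicer1-/- cells and 17874 in TFC, and 3457 in Dgcr8-/- cells and 16812 in V6.5. Of 13 listed chaperones that help to load small RNA into Argonaute, 9 were tested without Dicer1 and 10 without Dgcr8, and 0 of these were called, with medians of -0.25 and -0.22. Hsp90aa1, Hsp90ab1 and Hspa8 were above the limit of 20000 and had no test, and neither had Hspa4 in the Dicer1 pair. The authors' mean for Hsp90aa1 was 313909 in Dicer1-/- cells and 197289 in TFC, and 170564 in Dgcr8-/- cells and 101863 in V6.5. Hsp90ab1 had 217372 in Dicer1-/- cells and 232079 in TFC, and 182071 in Dgcr8-/- cells and 129387 in V6.5. Hspa8 had 119430 and 137842 in the Dicer1 pair, and 86076 and 70987 in the Dgcr8 pair, knockout first. Hspa4 had 22996 in Dicer1-/- cells and 28344 in TFC. Of the Piwi branch of the Argonaute family, Piwil2 averaged 607.0 in Dicer1-/- cells and 522.6 in TFC, and 424.5 in Dgcr8-/- cells and 171.0 in V6.5, and Piwil1 stayed under 14 in all 4 groups.

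Over the 12 libraries, with each pair centred on its own mean, the log2 levels of Ago1, Tnrc6a and Tnrc6b moved together, with Pearson's r of 0.92 between Ago1 and Tnrc6a, 0.94 between Ago1 and Tnrc6b and 0.96 between Tnrc6a and Tnrc6b. Ago2 had r of 0.35 with Ago1 and 0.090 with Tnrc6a. These are descriptions: libraries share lines, and the gap between knockout and wild type is part of each r. Of 12229 genes, those most like Ago1 were Msln (r = 0.989), Dock5 (0.981) and Hif1an (0.976). The closest to Tnrc6a were Pank1 (0.987), Atrn (0.982) and Kif1b (0.976), and the closest to Ago2 were Rac3 (0.961), G6pc3 (0.948) and Atp11a (0.942).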

How the data were processed

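The deposited tables hold, per gene and group, the authors' mean normalised signal of exonic or intronic reads of 3 libraries. The submitters' processing notes name TopHat2 2.0.12, DESeq and build mm10. The rule that split reads between exons and introns, and any use of strand in counting, was not given in the sources used here. Because each mean is a sum of whole reads times 1 step per library, steps and reads were solved for each library. 99.0% to 100.0% of genes per column had 1 solution, and genes with several, or with a mean above 20000, were left out of the tests. Of the reads recovered per gene, 60.2% to 80.4% were even numbers. Whether the mates of a read pair were counted apart was not tested. If they were, read numbers, totals and limits from a count of 0 refer to more reads than fragments. The letters of intronic libraries were matched to the exonic ones by their deviations, weakly for B and C (r from 0.0925 to 0.286). The design assumed values per library, and limma 3.58.1 in R 4.3.3 was run on log2(value + 1) with a variance trend. Fold changes of low genes depend on the pseudocount and on the mean of logs: that of Ago4 in exons without Dicer1 was 1.93, against 1.31 from the deposited means. Genes under a mean of 10 were left out. The exonic minus intronic change was centred on each library's median. The solving of reads and the fit of knockout against wild type within a table were checked on simulated data. The simulated fit had no library unlike its fellows, as library A is here. The fits of the exonic minus intronic change and of the difference between knockouts were not simulated. The members, lists and rules for named genes (all members, every called list gene, the genes most like a member) were chosen with earlier results of these data known. Alternatives were another pseudocount (10), no filter, scaling to table totals, no variance trend, a library set term, limma-voom, no centring and leaving out each library. The library set term set library A against B and C. No label gives such a set, and library A was picked from the values fitted, so calls with that term are no test.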

Additional observations from a re-analysis of the deposited data

How the results depend on the processing

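In exons without Dicer1 the 3 calls became 0 without the variance trend, 2 with limma-voom and between 0 and 3 when 1 library was left out. Without Dgcr8 the 1 call became 2 with scaling to table totals, 0 without the variance trend, 4 with a library set term and between 0 and 3 when 1 library was left out. With the library set term 1 member, Tnrc6c, was called in introns without Dgcr8, and 1, again Tnrc6c, in the exonic difference between the knockouts. Over all genes, the 164 calls in exons without Dicer1 became 33 without the variance trend, 1592 with the library set term, 72 with limma-voom and 0 to 479 when 1 library was left out. The 170 without Dgcr8 became 2148 with the library set term, 54 with limma-voom and 0 to 462 when 1 library was left out. In introns the 41 calls without Dicer1 ranged from 0 to 89, and the 163 without Dgcr8 from 26 (without library B of the Dgcr8-/- group) to 448 (library set term). The exonic difference between knockouts for Tnrc6a, 0.072, became -0.081 with scaling to table totals and ranged from -0.26 to 0.34 when 1 library was left out. That for Ago3 in exons ranged from -0.53 to 0.70, and that for Ago1 in introns from -0.056 to 1.03, each lowest without library A of the Dgcr8-/- group. The cause was not tested. No exonic change of Ago1, Tnrc6a or Tnrc6b changed sign under the alternatives run. No paired analysis was possible because the recovered libraries carry no replicate number. Depth limits Ago4 in both tables and the intronic values of Ago3, which rest on 5 reads in library A of the Dgcr8-/- group.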
